A study of Homo sapiens with 36 samples.

Results

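The response of platinum-sensitive ovarian cancer cells to carboplatin was measured by RNA-seq while the cells lacked external serine and glycine. It rests on 6 of the 36 libraries of the study, namely libraries 7, 8 and 9 of the condition -SG (medium without serine and glycine, no drug) and libraries 10, 11 and 12 of the condition -SG carbo (the same medium with carboplatin), chosen by the labelled treatment alone. All 6 come from A2780 WT, the parental cells of a human ovarian cancer cell line, called wt cells here. The study also sequenced these cells in complete medium, without drug and with carboplatin, in libraries 1 to 3 and 4 to 6. Those conditions are used only to show where the response without serine and glycine differed from that in complete medium, and the platinum-resistant cells of the study are not used. The labels give the drug as 6 M, the study's other assays name the same figure in micromolar, and the dose and day of the sequenced cells are not stated apart from a general statement of day 5. The legends of the study's RNA-seq panels give 3 technical replicates, but none names the medium without serine and glycine. The 3 libraries of each condition were taken as technical replicates here too. Every p-value therefore measures only the spread between these libraries and not that between independent cultures.

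Carboplatin binds DNA and links its strands, which stalls replication, stabilises the transcription factor p53 and stops the cell cycle. Serine and glycine supply carbon units to the folate cycle, from which purines and thymidylate are built. Cells that lose the external supply make serine from a glycolytic intermediate by PHGDH, PSAT1 and PSPH, and they raise amino acid synthesis and uptake genes through the transcription factor ATF4. The comparison asks what the drug adds when this supply is already missing.

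Total counts on genes were 20441582, 18824863 and 15362999 in libraries 7, 8 and 9 and 14732873, 16381042 and 15516684 in libraries 10, 11 and 12. Library 11 stood apart from the other -SG carbo libraries: the mean chi-square of the counts over genes was 25.6 and 24.6 against libraries 10 and 12, which differed from each other by only 1.20. Its difference ran with transcript length. Genes with transcripts under 1500 bases had a median level 0.23 higher on the log2 scale than in libraries 10 and 12, and genes with transcripts over 5000 bases a median level 0.25 lower. In the comparison itself the median log2 fold change went from 0.15 for the shortest to -0.19 for the longest transcripts with all 6 libraries, and from 0.06 to -0.10 without library 11. Mitochondrial genes took 6.2% of the counts of library 11 and 3.56% and 3.53% of those of libraries 10 and 12, against 3.75% to 6.31% in the -SG libraries. Counts and medians without library 11 are given with the lists.

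**Figure D1:**
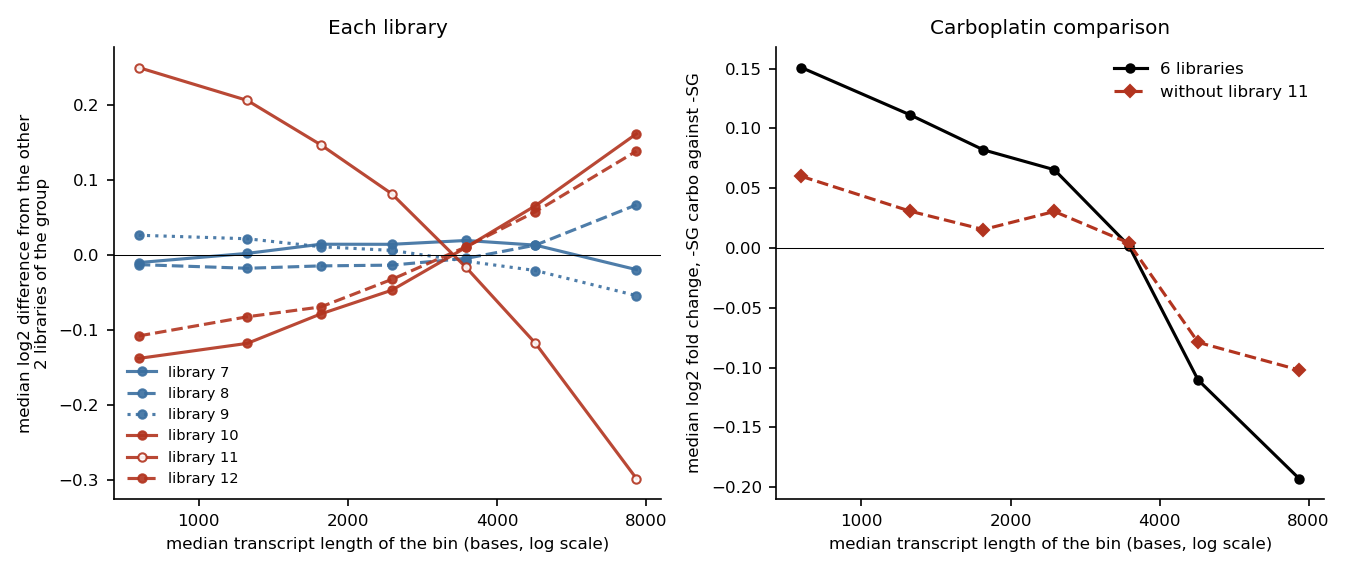
Median difference on the log2 scale of each library from the other 2 of its group (left, y axis) and median log2 fold change of -SG carbo against -SG (right, y axis) in 7 bins of transcript length (x axis, bases, log scale). Library 11, the open points, ran from 0.25 in the shortest bin to -0.30 in the longest, and the slope of the comparison was smaller without it.

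The labelled cell type was checked against marker genes, with levels given as counts in each 1000000 (CPM, scaled by the TMM method). The 12 ovarian epithelial markers summed to 2.51 to 2.83 CPM in the -SG libraries, where PAX8, WT1, MUC16, KRT7, KRT19 and SOX17 had at most 3 counts in each library. Genes that mark fibroblasts were high, with 6 of 8 at 1 CPM or more and a sum of 2250 to 2290 CPM. Most leukocyte markers (6 of 7, PTPRC among them) and all 5 matched endothelial markers had at most 3 counts in each -SG library. With carboplatin the epithelial sum was 22.3 to 23.3 CPM and the fibroblast sum 2500 to 3030 CPM. KRT8 and KRT18, keratins of simple epithelia, rose by 4.66 ± 0.24 (SE) and 4.04 ± 0.19 on the log2 scale, each with n = 3 libraries per condition. Only 4 of the 12 epithelial markers had enough counts to be tested, 3 higher and 1 not passing, with and without library 11. KRT19 had 3, 1 and 1 counts in -SG, so it could be tested only through its counts with carboplatin. KRT8 and KRT18 were also below 1 CPM on average in -SG, where 1 of the 12 markers reached that level, against 4 with carboplatin. The filter on low counts thus favoured a rise for these 3 keratins, and their direction supports nothing on its own. MSLN, FOLR1 and CDH1 had at most 3 counts in each -SG carbo library and more in at least 1 -SG library. They were too low to test, so no direction is read from them. Of the 7 fibroblast markers tested, 2 rose, 4 fell and 1 did not pass, with a median log2 fold change of -0.54 (2 higher, 5 lower and a median of -0.44 without library 11). The members went opposite ways, since COL1A1, a chain of collagen I, rose by 3.28 ± 0.08 while COL3A1, a chain of collagen III, went from a mean of 1344 to 917 CPM. What part a shift in cell state had in the results below was not tested. A lower level in bulk RNA cannot tell fewer expressing cells from less RNA per cell.

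Carboplatin changed most genes. Of 14467 genes tested, 9969 had an adjusted p under 0.05 by the quasi-likelihood test of edgeR (68.9%). Of these, 4966 were higher with the drug (34.3%) and 5003 lower (34.6%). With a change of at least 2-fold as well, 3204 genes passed (22.1%), 1718 higher (11.9%) and 1486 lower (10.3%). Without library 11 the counts were 10744 of 14657 (73.3%, 36.6% higher and 36.7% lower) and 3245 (22.1%, 11.9% higher and 10.2% lower). In all, 9675 genes were called in both fits with the same sign and 0 with the opposite sign. Levels did not overlap between the groups for 10643 of the genes tested (73.6%). Because so many genes passed, a list of genes is described by its counts beside these shares and by its median beside that of all genes, which was -0.01 on the log2 scale.

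**Figure D2:**
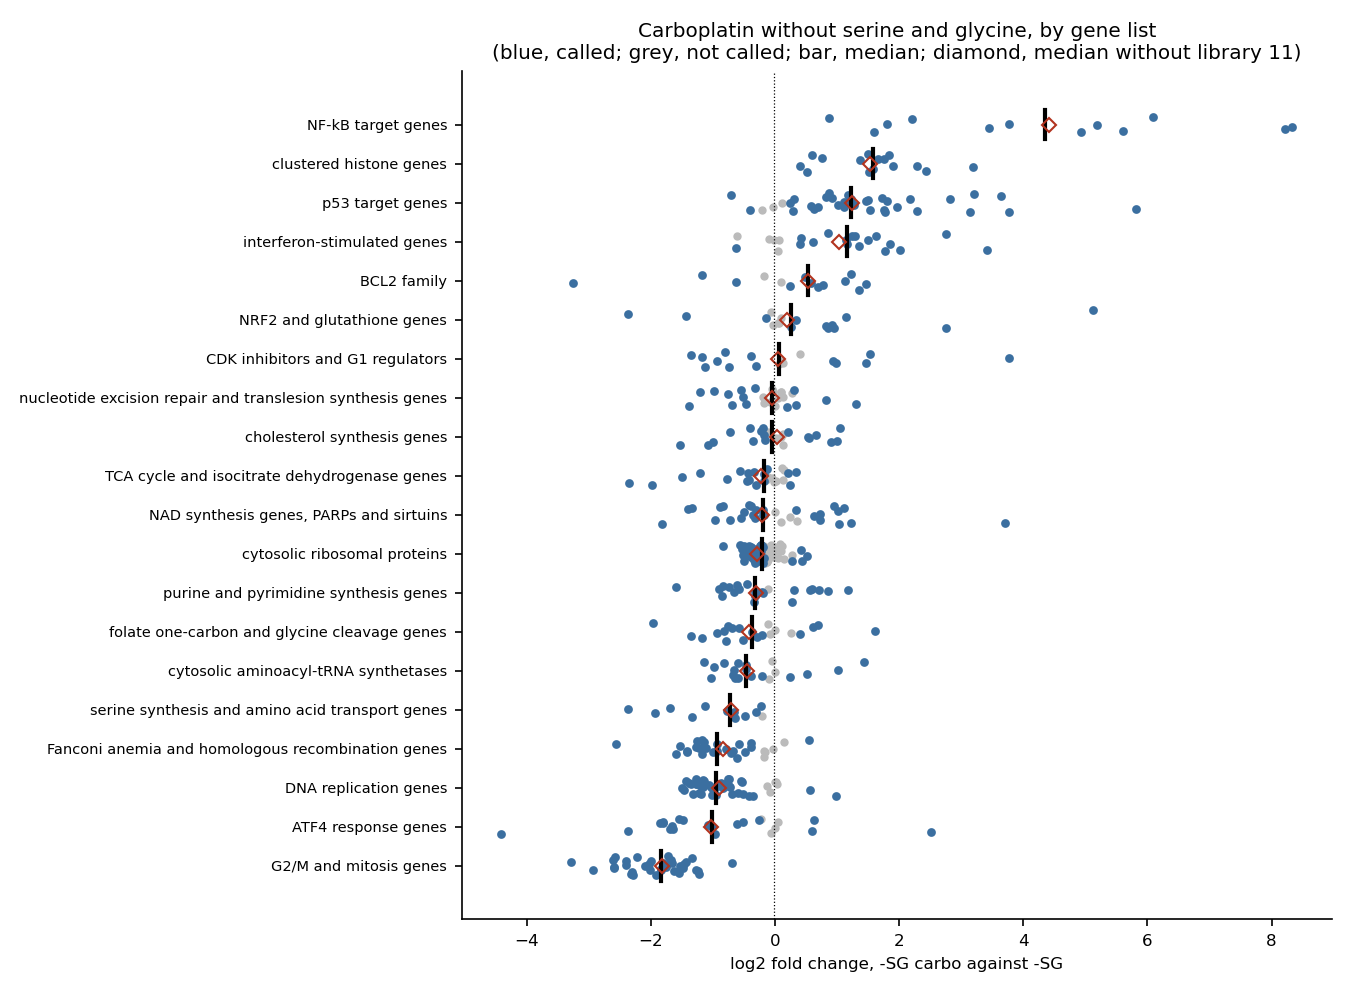
Log2 fold change of -SG carbo against -SG (x axis) for each tested member of 20 gene lists (y axis), with called members in blue, the median of the list as a bar and the median without library 11 as a diamond. NF-kB targets had the highest median and G2/M genes the lowest, and dropping library 11 moved no median across 0 apart from that of cholesterol synthesis genes, which was -0.05 and then 0.03. Fitted values of genes with almost no counts in -SG, such as TNF and CX3CL1, depend on a small count added in the fit. These genes passed the filter on low counts only through the carboplatin libraries, so the rank of the NF-kB median supports nothing on its own.

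Targets of p53 rose. CDKN1A (ENSG00000124762, chromosome 6, 36644237 to 36655114 on GRCh37), the p53 target whose protein p21 blocks cyclin-dependent kinases, was at 129, 130 and 131 CPM in the -SG libraries and at 1717, 1873 and 1710 CPM with carboplatin. The groups lay far apart and library 11 was the highest of its group. CDKN1A rose by 3.77 ± 0.06 on the log2 scale (adjusted p = 3.29e-10), and by 3.73 without library 11. MDM2, which ubiquitinates p53 for degradation, rose by 1.75 ± 0.07, and CD82, a membrane tetraspanin, went from 0.829, 1.41 and 1.52 CPM to 66.7, 70.6 and 71.3 CPM. Of 37 p53 targets tested, 32 were higher, 2 lower and 3 did not pass, with a median log2 fold change of 1.22, and 23 rose at least 2-fold. Without library 11 the counts were also 32 and 2 and the median 1.25. The targets that fell were CCNG1 (by 0.71), a cyclin G, and FBXO22 (by 0.40), a ubiquitin ligase subunit. FBXO22 no longer passed once the trend over transcript length was removed (log2 fold change -0.14).

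Pro-apoptotic targets were among those that rose. BBC3 (PUMA) went from 34.7, 38 and 40.9 CPM to 82.7, 94.0 and 85.7 CPM, and BAK1, a pore-forming protein of mitochondria, from 18.4, 16.8 and 19.2 CPM to 48, 43.9 and 46.3 CPM. Neither gene overlapped between the groups, and the log2 fold changes were 1.22 ± 0.08 and 1.36 ± 0.07. Of the 14 BCL2 family genes tested, 9 rose, 3 fell and 2 did not pass, the same counts as without library 11, and the medians were 0.53 and 0.54. MCL1, which protects cells from apoptosis, rose as well, from a mean of 554 to 1200 CPM. Those that fell were BCL2 (by 1.17), BCL2L2 (by 0.62), both of which oppose apoptosis, and the pro-apoptotic HRK, which fell from a mean of 3.61 to 0.366 CPM.

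Genes of mitosis fell together. KIF20A (ENSG00000112984, chromosome 5, 137514408 to 137523412 on GRCh37), a kinesin of the mitotic spindle and cytokinesis, was at 91, 88.9 and 88.5 CPM without the drug and at 8.91, 8.18 and 10.3 CPM with it, a log2 fold change of -3.28 ± 0.08 (adjusted p = 3.01e-09). ASPM, a protein of the spindle poles with a long transcript, went from 232, 261 and 227 CPM to 35.6, 22.4 and 35.7 CPM. Library 11 had the lowest ASPM level of the 6 libraries, and the log2 fold change was -2.94 ± 0.17 with it and -2.74 without it. All 37 G2/M and mitosis genes tested were lower, 36 of them at least 2-fold, with a median of -1.84. Without library 11 the counts were again 37 and 36, and the median was -1.82. TOP2A, CCNB2, PLK1 and BUB1B fell by 2.28, 2.60, 2.30 and 2.39 on the log2 scale, and CKAP2 (by 0.69) was the 1 member that fell less than 2-fold.

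Many mitotic genes carry 2 short promoter elements, the cell cycle homology region (CHR, TTTGAA) and the CCAAT box, where the DREAM and NF-Y complexes are known to bind. Both runs of letters were searched on both strands in the 250 bases before each annotated start in RefSeq (GRCh38.p14), overlapping matches included. The CHR letters were in the window of 17 of the 31 G2/M genes with an entry (54.8%), of 1 of 38 DNA replication genes (2.63%) and of 11.9% of the 10597 tested genes with an entry. CCAAT was in 24 of the 31 (77.4%) against 41.4% of tested genes. Among the G2/M genes the fall was much the same with and without the CHR letters, with medians of -2.02 over 17 genes and -1.92 over 14. The windows of the mitotic genes named by the rule are shown, with CHR and CCAAT letters of either strand in capitals, so that TTCAAA and ATTGG mark the minus strand. KIF20A had 2 CCAAT matches and no CHR match, and ASPM had 4 and 1.
KIF20A (chr5:138178862-138179111, plus strand): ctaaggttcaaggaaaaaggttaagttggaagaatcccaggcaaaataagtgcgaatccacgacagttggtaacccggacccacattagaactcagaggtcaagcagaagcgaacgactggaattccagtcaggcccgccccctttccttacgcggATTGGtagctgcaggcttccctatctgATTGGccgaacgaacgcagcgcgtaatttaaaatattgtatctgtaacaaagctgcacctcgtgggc
ASPM (chr1:197146670-197146919, minus strand): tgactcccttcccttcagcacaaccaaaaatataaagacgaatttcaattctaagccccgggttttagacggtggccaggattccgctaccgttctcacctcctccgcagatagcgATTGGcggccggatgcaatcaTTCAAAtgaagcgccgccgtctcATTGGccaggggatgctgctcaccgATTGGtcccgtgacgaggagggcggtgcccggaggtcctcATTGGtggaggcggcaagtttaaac

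Genes of DNA replication and of crosslink repair were lower too. PRIM1, the catalytic subunit of the primase that starts each DNA strand, went from 27.3, 25.5 and 26.8 CPM to 9.67, 10.2 and 8.18 CPM, and RFC1, of the clamp loader, fell by 1.46 ± 0.08. Of 43 replication genes tested, 36 were lower and 2 higher, with a median of -0.95 and 20 lower at least 2-fold (37, 2 and -0.91 without library 11). The pair that rose was PCNA, the sliding clamp, and RRM2, the small subunit of ribonucleotide reductase. RRM2 was at 158, 154 and 154 CPM without the drug and at 230, 228 and 227 CPM with it, with very little spread in either group, a log2 fold change of 0.57 ± 0.05 (adjusted p = 5.22e-06). PCNA rose by 0.98 ± 0.06.

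Among 29 Fanconi anemia and homologous recombination genes, which repair the DNA crosslinks that platinum makes, 23 were lower, 1 was higher and 5 did not pass (median -0.93). Without library 11, 24 were lower, 2 were higher and 3 did not pass (median -0.84). FANCE, a subunit of the Fanconi core complex, went from 30.3, 30.5 and 31.3 CPM to 4.42, 4.74 and 6.28 CPM, a log2 fold change of -2.56 ± 0.11. FANCD2, BRCA1 and BRCA2 fell by 1.59, 1.18 and 1.28, and RAD51C rose by 0.55 ± 0.10. Nucleotide excision repair and translesion synthesis genes showed no common direction, with 5 of 25 higher, 9 lower, 11 not passing and a median of -0.04 (7, 9, 9 and -0.05 without library 11). ERCC1, part of the nuclease that cuts beside a lesion, rose by 1.31 ± 0.07, and POLH, a polymerase that copies past lesions, by 0.82 ± 0.08. POLQ, a polymerase of DNA end joining, fell by 1.21 ± 0.12.

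Of 17 cyclin-dependent kinase inhibitors and G1 regulators tested, 5 rose and 8 fell, with a median of 0.06 (7, 8 and 0.05 without library 11). Beside CDKN1A, CCND1 (cyclin D1) rose from 215, 223 and 221 CPM to 639, 540 and 636 CPM, with library 11 lowest of its group and still well above the untreated libraries. CCNE1 and CCNE2, the E cyclins, rose by 0.93 and 0.98. RBL1 and CDKN2A fell by 1.35 ± 0.09 and 1.18 ± 0.16.

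All 15 clustered histone genes with enough counts to be tested were higher, 11 of them at least 2-fold, with a median of 1.59. Without library 11 the counts were the same and the median was 1.52. The other 18 of the 33 genes of this list were too low to test. H1-4 and H2AC13, at means of 0.250 and 0.477 CPM in -SG, also passed the filter on low counts only through the carboplatin libraries. H1-2, a linker histone of the replication-dependent cluster, was at 28.5, 25.4 and 25.4 CPM in -SG and at 127, 159 and 138 CPM with carboplatin. The groups did not overlap, library 11 was the highest, and the log2 fold change was 2.43 ± 0.09 (2.33 without library 11). H4C8, which codes for a core histone H4, rose by 1.91 ± 0.16. These genes have short transcripts and close copies, and the part of library 11 and of reads with several matches in their levels was not tested beyond the values without that library.

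NF-kB targets had the highest median of the 20 lists, over the 12 of 19 listed genes with enough counts to be tested. BIRC3 (ENSG00000023445, chromosome 11, 102188215 to 102210134 on GRCh37), an inhibitor of apoptosis in tumour necrosis factor signalling, was at 7.75, 7.62 and 7.69 CPM in -SG and at 247, 202 and 246 CPM with carboplatin. Its log2 fold change was 4.92 ± 0.10 (adjusted p = 1.10e-09), and 5.01 without library 11, the lowest of the treated libraries. CX3CL1, a chemokine, had 3, 0 and 1 counts in libraries 7, 8 and 9 and 385, 426 and 363 in libraries 10, 11 and 12, a ratio of 353 with a 95% counting interval of 138 to 1299. TRAF1, an adaptor of tumour necrosis factor receptors, went from 0.390, 0.261 and 0.635 CPM to 28.6, 26 and 31.3 CPM. TNF itself had no count in any -SG library and 27, 48 and 26 counts with carboplatin, which is at least 13.5-fold higher when each -SG library is set at 3 counts. The 12 NF-kB targets with enough counts to be tested were higher, 11 at least 2-fold, with and without library 11. Members almost silent in -SG, such as TNF, CX3CL1 and TRAF1, passed the filter on low counts only through the carboplatin libraries, so their direction was fixed by the filter. The count, the median of the list and its rank among the lists therefore support nothing on their own. With 10 counts required in every library 7 targets were left, called higher. The median of the 12 was 4.34, or 3.76 with TNF at its bound, and 4.41 without library 11. A further 7 of the 19 listed genes, IL6, IL1B and CXCL8 among them, had too few counts to test.

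The NF-kB consensus was found, on either strand, in the 250 bases before a start in 5 of the 8 tested NF-kB targets with an entry (62.5%) and in 8.12% of all tested genes with one. The interferon-type letters TTTCNNTTTC were found in 11 of 16 interferon-stimulated genes (68.8%) against 3.21%. Both lists hold genes chosen as known targets, so these shares say nothing about the response to carboplatin. Such matches are letters in a window, and binding was not measured. One window of each list is shown with its matches in capitals. BIRC3 was chosen for its matches after its values were seen, and IFIT3, which has more than 1 annotated start, is a gene named by the rule.
BIRC3 (chr11:102317234-102317483, plus strand): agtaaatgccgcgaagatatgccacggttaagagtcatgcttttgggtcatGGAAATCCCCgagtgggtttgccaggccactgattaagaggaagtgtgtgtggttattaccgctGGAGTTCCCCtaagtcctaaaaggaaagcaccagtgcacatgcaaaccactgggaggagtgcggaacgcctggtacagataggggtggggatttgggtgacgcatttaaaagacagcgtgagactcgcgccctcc
IFIT3 (chr10:89327747-89327996, plus strand): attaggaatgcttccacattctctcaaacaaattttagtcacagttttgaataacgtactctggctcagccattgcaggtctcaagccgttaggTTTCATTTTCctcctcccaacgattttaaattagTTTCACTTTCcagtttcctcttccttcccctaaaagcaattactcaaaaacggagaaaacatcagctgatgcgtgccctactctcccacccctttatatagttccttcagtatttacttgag

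Interferon-stimulated genes rose more often than not, with 16 of 22 tested higher, 1 lower and 5 not passing, a median of 1.16 and 12 at least 2-fold higher. Without library 11 the counts were 16 and 1 and the median 1.04. IFIT3, which binds viral RNA in a complex with its relatives, was at 42.1, 43.5 and 41.5 CPM in -SG and at 289, 272 and 291 CPM with carboplatin, a log2 fold change of 2.75 ± 0.06. ISG20, an exonuclease of RNA, rose by 3.42 ± 0.19 and IRF1, a transcription factor of the response, by 2.02. BST2, STAT2 and IRF9 did not pass the test, with log2 fold changes of 0.05, 0.06 and -0.10, and USP18, which damps interferon signalling, fell by 0.63 ± 0.12.

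**Figure D3:**
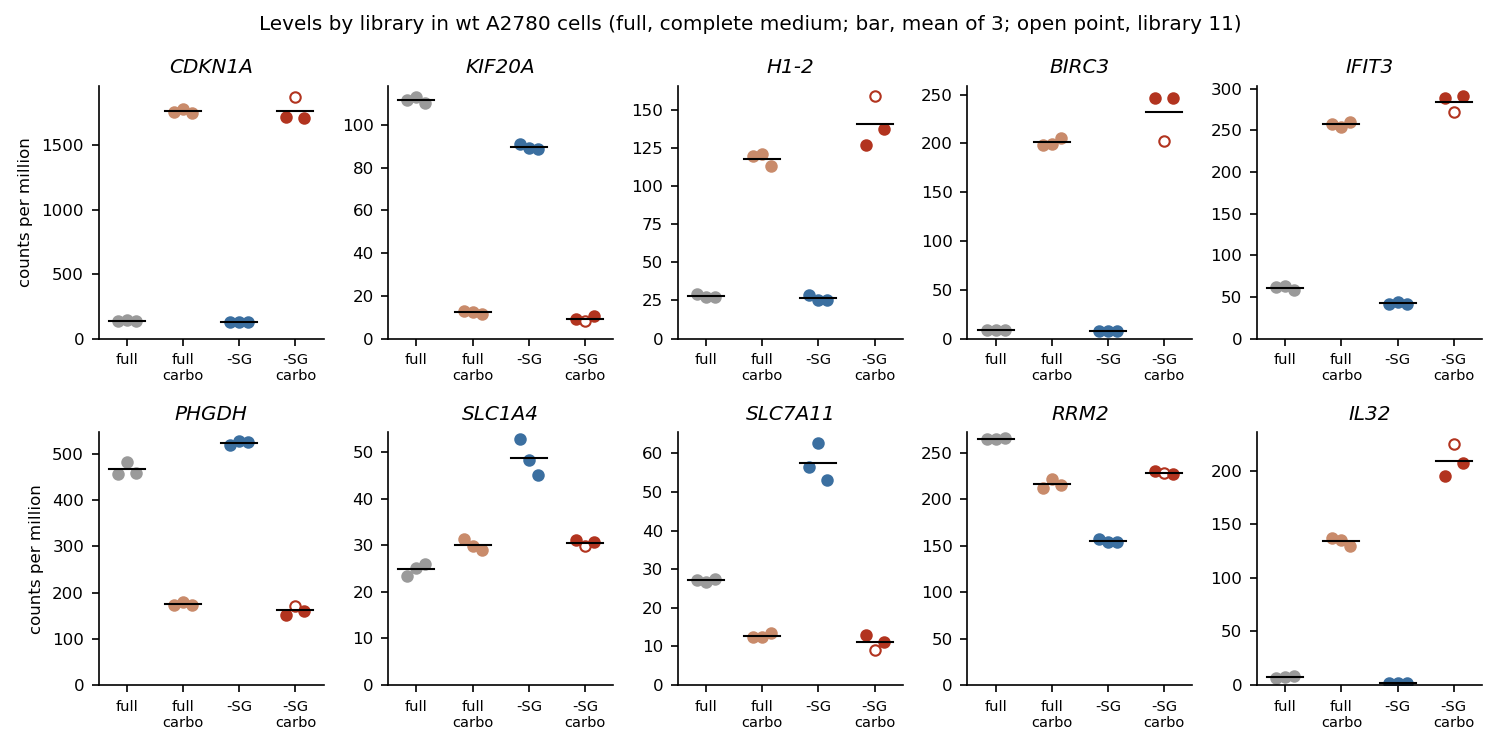
Level in CPM (y axis) of 10 genes in each of the 12 wt libraries by condition (x axis), with the mean of 3 libraries as a bar and library 11 as an open point. CDKN1A rose and KIF20A fell to much the same levels in both media, SLC1A4 and SLC7A11 were highest in -SG without the drug, and RRM2 was lowest there.

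The serine synthesis enzymes fell in cells without external serine. PHGDH (ENSG00000092621, chromosome 1, 120191034 to 120286841 on GRCh37), which commits a glycolytic intermediate to serine, was at 519, 528 and 525 CPM in -SG and at 152, 171 and 161 CPM with carboplatin. The groups were far apart, and the log2 fold change was -1.69 ± 0.06 (adjusted p = 1.49e-08), or -1.73 without library 11. PSAT1, the next enzyme, went from 1053, 1070 and 1056 CPM to 405, 433 and 413 CPM, and PSPH, the last, fell by 0.77 ± 0.05. The transporters fell with them. SLC1A5, the main carrier of glutamine and of neutral amino acids, went from 419, 427 and 419 CPM to 189, 197 and 191 CPM. SLC1A4, a serine and alanine carrier, went from 52.7, 48.2 and 45 CPM to 31.2, 29.8 and 30.6 CPM, a log2 fold change of -0.66 ± 0.07. SLC7A11, the cystine importer, fell by 2.37 ± 0.12 (2.25 without library 11, its lowest library), and SLC6A9, a glycine transporter, fell by 1.94 ± 0.06. Of the 12 genes of serine synthesis and amino acid transport, 11 were lower, 5 at least 2-fold, and none of the 12 was higher in edgeR's test (median -0.72). Without library 11 the counts were the same and the median was -0.70.

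In the folate cycle 13 of 21 genes tested were lower and 4 higher, with a median of -0.37 (14, 4 and -0.41 without library 11). SHMT1, the cytosolic enzyme that turns serine into glycine, went from 44.6, 45.7 and 44 CPM to 11.7, 11.3 and 11.1 CPM (log2 fold change -1.97 ± 0.07), and its mitochondrial counterpart SHMT2 fell by 0.82 ± 0.05. ALDH1L2, which oxidises formyl-folate in mitochondria, fell by 1.35 ± 0.08. GLDC, which breaks down glycine, went the other way, from 19.4, 19.8 and 19.1 CPM to 62.1, 57.3 and 57.7 CPM (1.61 ± 0.06). MTHFD2L rose by 0.70 ± 0.13 from a low level.

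ATF4 response genes were mostly lower. FGF21, a secreted stress hormone, was at 10.8, 11.8 and 11.2 CPM in -SG and at 0.621, 0.492 and 0.458 CPM with carboplatin, a log2 fold change of -4.41 ± 0.16. ASNS, which makes asparagine, fell from a mean of 474 to 134 CPM, and TRIB3, a pseudokinase that restrains the response, from 143 to 51.2 CPM. ATF4 itself was at 495, 497 and 485 CPM without the drug and at 326, 369 and 338 CPM with it, a smaller fall of 0.51 ± 0.06 on the log2 scale. Of 23 genes tested, 16 were lower, 12 of them at least 2-fold, 3 were higher and 4 did not pass (median -1.02). Without library 11, 17 were lower, 12 of them at least 2-fold, and 3 were higher (median -1.02). Those that rose were ATF3 (2.51 ± 0.07), SESN2 (0.63 ± 0.06) and PPP1R15A (0.59), and SESN2 is also on the p53 list. Cytosolic aminoacyl-tRNA synthetases, several of which respond to ATF4, were lower in 13 of 20 cases and higher in 4, with a median of -0.46 (14, 4 and -0.45 without library 11). AARS1 fell by 1.14 ± 0.09, while HARS1 and RARS1 rose by 1.44 ± 0.05 and 1.01 ± 0.06.

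PARP1, which marks DNA breaks with chains of ADP-ribose made from NAD, was at 484, 492 and 488 CPM in -SG and at 265, 246 and 276 CPM with carboplatin, a log2 fold change of -0.89 ± 0.06. Of 31 NAD synthesis genes, PARPs and sirtuins tested, 17 were lower and 10 higher, with a median of -0.19 (16, 12 and -0.20 without library 11). NMNAT2, a cytoplasmic enzyme of NAD synthesis, rose from 3.07, 2.98 and 2.54 CPM to 40.5, 33.1 and 39.4 CPM (3.71 ± 0.12), and PARP3 rose by 1.22 ± 0.07. PARP16 and NNT, a mitochondrial transhydrogenase, fell by 1.82 ± 0.12 and 1.39 ± 0.08.

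Genes of the tricarboxylic acid cycle were lower in 14 of 25 cases and higher in 3, with a median of -0.17 (16, 3 and -0.23 without library 11). IDH1, an isocitrate dehydrogenase of the cytosol, went from 144, 142 and 145 CPM to 37.8, 35.6 and 35 CPM, and PC, the pyruvate carboxylase, fell by 2.36 ± 0.11. IDH3A and SDHA rose by 0.34 ± 0.07 and 0.25 ± 0.06. Purine and pyrimidine synthesis genes were lower in 14 of 22 cases and higher in 7, with a median of -0.32 (15, 7 and -0.31 without library 11). CTPS2 and CAD fell by 1.60 ± 0.09 and 0.90 ± 0.11, and RRM2B, the p53-regulated ribonucleotide reductase subunit, and ADSS2 rose by 1.17 ± 0.07 and 0.86 ± 0.06.

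HMOX1, which breaks down heme, was at 31.6, 30.4 and 29.9 CPM in -SG and at 995, 1166 and 1030 CPM with carboplatin, a log2 fold change of 5.13 ± 0.08 (5.05 without library 11, its highest library). FTH1, the heavy chain of the iron store ferritin, rose by 2.76 ± 0.17, though it has many processed copies in the genome and its count is less certain. On the list of NRF2 targets and glutathione genes 9 of 17 were higher and 3 lower, with a median of 0.27 (9, 3 and 0.19 without library 11). The cystine importer SLC7A11 and malic enzyme ME1 (by 1.43 ± 0.07) were those that fell most. NQO1, a defining NRF2 target, was at a mean of 199 and 207 CPM, a log2 fold change of 0.07 that did not pass.

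Ribosomal protein genes depended on library 11. With it, 43 of 82 tested were lower and 4 higher, and without it 68 were lower and 5 higher, while the medians were -0.20 and -0.29. RPL3 went from 2058, 2026 and 2023 CPM to 1318, 1438 and 1329 CPM, with library 11 the highest of its group. Many of these genes have near-identical processed copies, and no member changed 2-fold with all 6 libraries. Cholesterol synthesis genes were lower in 10 of 22 cases and higher in 7, with a median of -0.05 (10, 7 and 0.03 without library 11). LSS and INSIG1 fell by 1.53 ± 0.06 and 1.08 ± 0.07, and NSDHL and SQLE rose by 1.04 ± 0.11 and 0.99 ± 0.05.

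Across all protein-coding genes, the 6 that the rule named as rising most were nearly silent in -SG, while the 6 named as falling most were expressed there. This contrast was set by the rule, since a large fall with a mean of at least 50 counts needs counts in -SG. The 6 that rose passed the filter on low counts only through the carboplatin libraries, so their direction was fixed by it. CCL22, a chemokine, had no count in the -SG libraries and 155, 179 and 149 counts with carboplatin, at least 64.6-fold higher with each -SG library set at 3 counts. RUNX3, a transcription factor, had 2, 2 and 1 counts and then 451, 496 and 503, a ratio of 349 (95% counting interval 149 to 1077). SERPINA1, a protease inhibitor, and CHI3L2, a chitinase-like protein, had ratios of 406 (112 to 3362) and 362 (64.5 to 14360). TAF11L12, of a family of near-identical copies, had 2 counts in all -SG libraries and 463 in all treated ones. These intervals cover counting error only. At the other end FUT1, a fucosyltransferase, fell from 16.8, 16.9 and 17.7 CPM to 0.345, 0.800 and 0.393 CPM, a log2 fold change of -5.01 ± 0.18 and of -5.50 without library 11. SLC7A3, a carrier of cationic amino acids, KLF15, a transcription factor of amino acid metabolism, GNG7, a G protein subunit, and HRC, a calcium-binding protein, fell by 4.47, 4.19, 3.94 and 3.90.

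The response in complete medium was close to that without serine and glycine. These comparisons share no library. Across 11432 genes with a mean of at least 50 counts, the log2 fold changes in the 2 media had a Pearson correlation of 0.93, given as a description across genes, which are not independent, and the slope of one on the other was 1.04. In complete medium 11396 of 14639 genes were called (77.8%), 38.9% higher and 39% lower, and 19.1% changed at least 2-fold (10.6% higher and 8.54% lower). The spread between libraries was smaller there, with a common dispersion of 0.000421 against 0.00597 without serine and glycine (0.00151 without library 11). The shares called in the 2 media are therefore not like for like. Genes called in both media numbered 8665, which was 86.9% of the calls without serine and glycine and 76.0% of those in complete medium, and 96.2% of them had the same sign. The 37 G2/M genes were all lower in complete medium as well, with a median of -2.02. The 12 NF-kB targets tested were all higher there, with a median of 4.18. Members such as CX3CL1 and TRAF1 were almost silent without the drug in this medium too. They passed the filter on low counts only through the carboplatin libraries, so their direction was again fixed by it. The count and the median of the NF-kB targets therefore support no likeness between the media on their own.

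**Figure D4:**
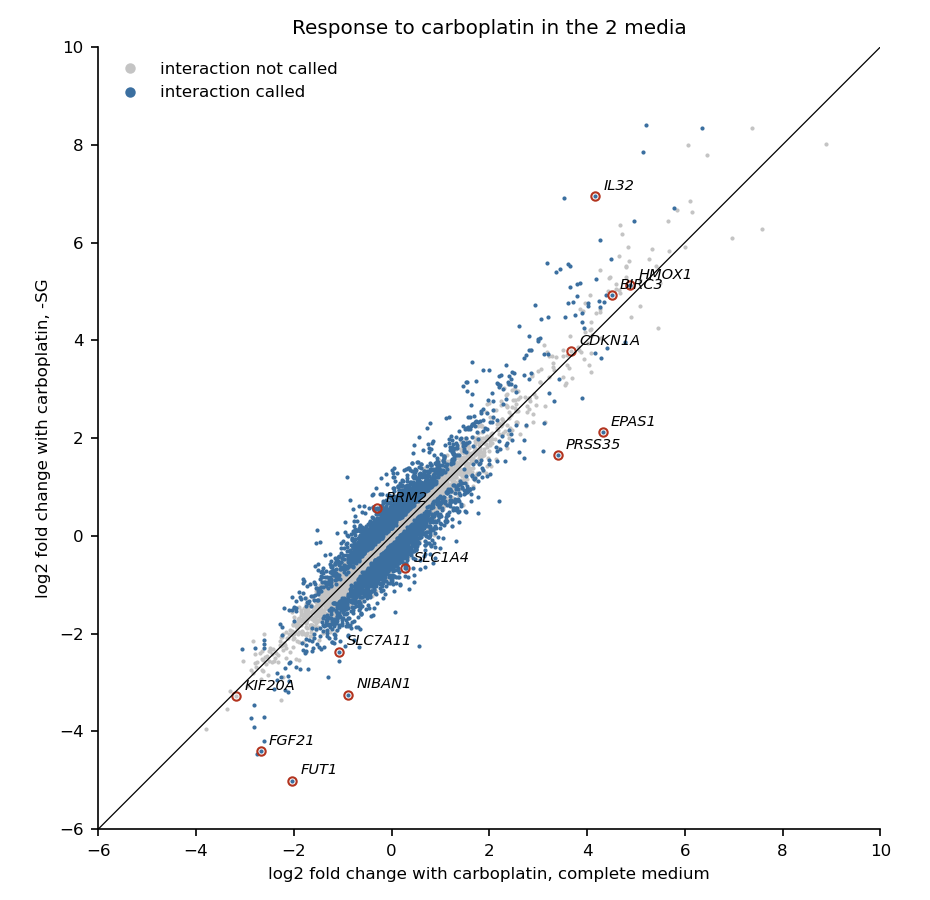
Log2 fold change with carboplatin without serine and glycine (y axis) against that in complete medium (x axis) for each well-counted gene with a symbol, with genes whose response differed between media in blue and the line of equal response in black. CDKN1A, KIF20A and HMOX1 lie near the line, IL32 and RRM2 above it, and FUT1, NIBAN1, EPAS1 and SLC7A11 below it.

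The difference itself was tested as the interaction of medium and carboplatin in the 12 wt libraries. It passed for 4219 of 15247 genes (27.7%), 2225 with a higher log2 fold change without serine and glycine (14.6%) and 1994 with a lower one (13.1%), and 371 of the differences were at least 2-fold (2.43%, with 1.32% higher and 1.11% lower). Without library 11 it passed for 5306 of 15523 genes (34.2%, with 18.1% higher and 16.1% lower), and 2.63% were at least 2-fold (1.34% higher and 1.29% lower). Of the genes, 4028 were called both times. For p53 targets the log2 fold change was called lower without serine and glycine in 13 of 37 cases and higher in 3 (18 and 4 without library 11), for G2/M genes it was called less negative in 12 of 37, and for NF-kB targets it differed in 1 of 12, BIRC3 (0.42 ± 0.12). Without library 11, G2/M genes were called higher in 16 cases and lower in 1, and NF-kB targets differed in 3, 2 higher and 1 lower. NF-kB targets almost silent without the drug had wide errors, such as CX3CL1 (0.97 ± 0.99) and TRAF1 (-0.88 ± 0.51). The few calls on that list therefore do not show that its response was the same in both media. CDKN1A was at 1759, 1779 and 1754 CPM with carboplatin in complete medium, and its difference of 0.10 ± 0.05 did not pass (adjusted p = 0.193).

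Amino acid genes fell further without serine and glycine. The interaction was negative and called for 17 of 23 ATF4 response genes, 5 of them by at least 2-fold, and for 8 of 12 serine synthesis and amino acid transport genes (18 and 9 without library 11). SLC7A11 was at 27.2, 26.7 and 27.5 CPM in complete medium and at 12.3 to 13.6 CPM there with carboplatin, so that the untreated level was higher in -SG while the treated levels overlapped between media. Its interaction was -1.30 ± 0.14 (adjusted p = 4.44e-06). ATF5, a transcription factor of the response, was at a mean of 38.3 and 40.4 CPM without and with the drug in complete medium and at 137 and 46.4 CPM in -SG. SLC1A4 changed sign, since it rose in complete medium from 23.4, 25.1 and 26 CPM to 31.3, 29.8 and 29.1 CPM (0.28) and fell without serine and glycine. The interaction of SLC1A4 was -0.95 ± 0.09 (adjusted p = 2.01e-06). PHGDH, PSAT1, SLC1A5 and SHMT2 had small negative interactions of -0.29, -0.35, -0.30 and -0.24, and those of PSPH, SHMT1 and ATF4 did not pass (-0.15, -0.15 and 0.02).

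**Figure D5:**
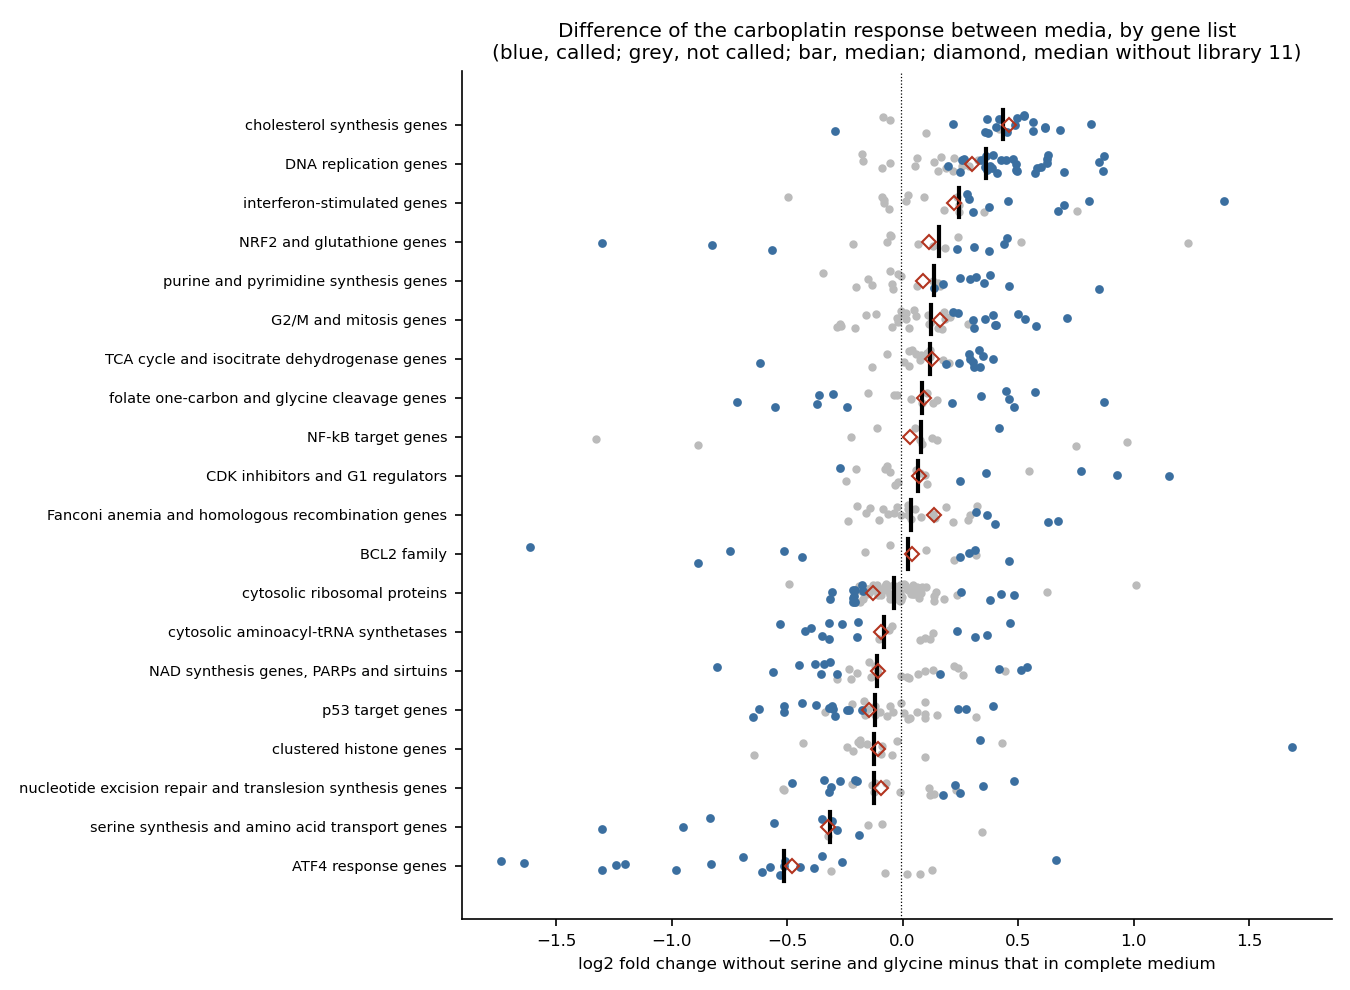
Difference of the log2 fold change with carboplatin, -SG minus complete medium (x axis), for each tested member of the 20 lists (y axis), with called members in blue, the median as a bar and the median without library 11 as a diamond. Cholesterol synthesis and DNA replication genes had the highest medians (0.44 and 0.36) and ATF4 response genes the lowest (-0.52).

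Replication and cholesterol synthesis genes went the other way. Of 43 replication genes 28 had a called positive interaction and none of the 43 a called negative one (29 and 0 without library 11). RRM2 was at 264, 265 and 266 CPM in complete medium and at 212, 222 and 216 CPM there with carboplatin, so that it fell with the drug in complete medium and rose in -SG, where it started lower. Its interaction was 0.85 ± 0.05 (adjusted p = 1.07e-08), and that of PCNA was 0.58 ± 0.07. Of 22 cholesterol synthesis genes 17 had a called positive interaction and 1 a negative one, with and without library 11. HMGCS1, an early enzyme of the pathway, had means of 292 and 287 CPM without and with the drug in complete medium and of 183 and 287 CPM in -SG. NSDHL, SQLE and INSIG1 had interactions of 0.82, 0.52 and 0.45. For ribosomal proteins 10 of 82 interactions were called negative and 4 positive with library 11, and 50 and 6 without it.

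The largest differences by the rule were of IL32, CXCR4, SERPINA1 and TAF11L12 on the higher side. IL32 (ENSG00000008517, chromosome 16, 3115298 to 3132193 on GRCh37), a cytokine, was at 6.74, 7.04 and 8.66 CPM in complete medium and at 1.71, 1.83 and 1.52 CPM in -SG. With carboplatin it was at 137, 135 and 129 CPM and at 195, 224 and 207 CPM, an interaction of 2.78 ± 0.15 (adjusted p = 4.04e-09). CXCR4, a chemokine receptor, had 5 counts in all -SG libraries and 538 in all -SG carbo libraries, a ratio of 130 (55.2 to 401), and means of 0.646 and 7.51 CPM in complete medium. On the lower side NIBAN1, a stress-induced protein, was at a mean of 56.9 CPM in -SG and 5.92 CPM with carboplatin, and at 10.2 and 5.54 CPM in complete medium. FUT1 had means of 3.63 and 0.883 CPM in complete medium. EPAS1, a hypoxia-inducible factor, and PRSS35, a protease-like protein, rose in both media but less in -SG, where their untreated levels were higher, with interactions of -2.21 ± 0.23 and -1.75 ± 0.20.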

How the data were processed

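RNA-seq counts of the 12 wt libraries were analysed. The authors mapped single-end reads to GRCh37.p13 with STAR, used HTSeq to count them over GENCODE v19 exons, and deposited raw counts per gene. The strand setting and the handling of reads with several matches are not given in the sources used here. Of 57820 gene rows 55538 matched a symbol in GENCODE v44 mapped to GRCh37, which also gave positions and transcript lengths. The 3 rows naming no gene stayed out of library sizes and tests, and reads on no feature were 7.57% to 8.77% of the 6 libraries compared. Total counts per library set the counting precision.

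Groups came from the labels, which number libraries across the series without numbering replicates inside a condition. edgeR 4.0.16 in R 4.3.3 (TMM, filterByExpr, robust quasi-likelihood F test, two-sided, Benjamini-Hochberg over all genes tested) was fitted to the 6 libraries, and to 12 for the interaction. Errors are standard errors (SE), taken as the log2 fold change over the square root of F. A fold against a group without counts was set against 3 counts in each library. For 1 to 5 counts a ratio of summed counts with an exact 95% interval is given. DESeq2 1.42.0, which the study's methods name, was an alternative, beside other scalings, filters, removal of the trend over length, and libraries left out in turn. On counts simulated for the comparison without serine and glycine, 184 of 200 genes changed by 1 on the log2 scale were recovered among 14357, with 9 false calls, and 125 of 200 changed by 0.5 among 14323. For the interaction the numbers were 164 among 14977 and 102 among 14959. Every simulated gene had the same dispersion, only 200 genes changed, and no library was shifted with transcript length. The recovery and false calls therefore describe that simpler setting and not the real comparison.

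The comparison, 20 pathway lists and 4 marker lists were chosen with earlier results of these data known. Named genes were 11 fixed ones (PHGDH, PSAT1, PSPH, SLC1A4, SLC1A5, SHMT1, SHMT2, PARP1, ATF4, CDKN1A, MDM2). To these were added, per list, at most 2 in each direction with the largest change among called, non-overlapping genes with a mean of at least 50 counts that held without library 11, then the 6 largest in each direction, and 4 in each direction for the interaction. Other members of the lists were named as examples after their values were seen. UHRF1 and PECAM1 had no matching row. Promoter windows came from RefSeq (GRCh38.p14). Python 3.11.15, pandas 2.3.3 and matplotlib 3.10.9 served for summaries and plots.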

Additional observations from a re-analysis of the deposited data

Results flagged for a closer look

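The response to carboplatin differed between media, by the interaction test in edgeR, for 4219 genes. All values that follow are log2 fold changes without serine and glycine minus those in complete medium, for genes described above that passed this test. Among serine and folate genes and their transporters the difference was -0.29 for PHGDH, -0.35 for PSAT1, -0.95 for SLC1A4, -0.30 for SLC1A5, -0.24 for SHMT2, -1.30 for SLC7A11 and -0.84 for SLC6A9. For PARP1 it was 0.16. Among ATF4 response genes it was 0.66 for ATF3, -0.52 for SESN2 and -1.74 for FGF21. PCNA and RRM2 had differences of 0.58 and 0.85, and NSDHL, SQLE and INSIG1 of 0.82, 0.52 and 0.45. The largest differences were 3.38 for CXCR4, 3.21 for SERPINA1, 2.78 for IL32 and 2.73 for TAF11L12, and -2.98 for FUT1, -2.37 for NIBAN1, -2.21 for EPAS1 and -1.75 for PRSS35. CXCR4, SERPINA1 and TAF11L12 had almost no counts in -SG, so their values depend on a small count added in the fit.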

How the results depend on the processing

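The number of genes called stayed within 1.5 times the reported one under the 8 other settings (8841 to 11279) and with each library left out (9304 to 10744), and so did the interaction calls under 6 other settings (3805 to 4888) and with each library left out (3455 to 5306). The exception among the counts over all genes was that of genes at least 2-fold higher, which went from 1718 to 2599 with no filter on low counts, a setting that tests more low genes. Of 1332 values of named genes under these settings, 1329 kept their direction and call, and 0 reversed. FBXO22 no longer passed with the length trend removed (-0.14), nor did the interaction of TAF11L12 without wt library 1 (2.31) or without -SG library 7 (2.15). Of 920 counts of list members called, 889 were within 1.5 times the reported one. Library 11, and removal of the length trend, moved ribosomal proteins most, from 43 lower to 68 and 69. Requiring 10 counts in every library left 7 NF-kB targets called in place of 12. No paired analysis was possible because the labels give no replicate numbers within a condition. With the libraries taken as technical replicates, the p-values say nothing of variation between cultures.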
